A study of Mus musculus with 12 samples.

Results

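The genes for 10 sensors of microbial products and their partners were examined for chromatin accessibility: the Toll-like receptors Tlr1, Tlr2, Tlr4, Tlr5, Tlr6 and Tlr9, the lipopolysaccharide co-receptor Cd14, the adaptor Myd88, and the cytosolic receptors Nod1 and Nod2. A peak of open chromatin belonged to a gene when its centre lay in the gene or within 10 kb of its ends, by RefSeq positions on GRCm38, and it was given to the nearest of the 10 genes. Of 75281 peaks in the study, 46 met this rule, between 2 (Tlr1) and 10 (Nod2) per gene, among 15328 genes with a peak in all. Given the 10 genes, a peak's place among these 46 rests on its position alone. The genes, and the pathway and marker lists below, were chosen with earlier results of these data known.

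Toll-like receptors are membrane proteins of innate immune cells that bind conserved microbial molecules through a leucine-rich ectodomain and signal through a cytoplasmic TIR domain. TLR2 pairs with TLR1 or TLR6 to bind bacterial lipopeptides, TLR4 with the help of CD14 responds to lipopolysaccharide, TLR5 binds flagellin, and TLR9 reads unmethylated CpG DNA in endosomes. MYD88 carries the signal of all of these to the IRAK kinases and NF-kB, while NOD1 and NOD2 detect peptidoglycan fragments in the cytosol and signal through RIPK2; in bone marrow the surface receptors are best known from neutrophils, monocytes and their precursors.

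Bone marrow of NZO/HILtJ mice, an inbred line that becomes obese and often diabetic, was profiled by ATAC-seq. This assay counts fragments cut out by the Tn5 transposase, so a higher count over a peak means more accessible DNA there. There were 4 groups of 3 mice each: females at 3 months, males at 3 months, females at 18 months and males at 18 months; every mouse was NZO, and the labels name no other allele and no treatment. The library protocol given with the samples describes sorting of CD3e and CD8 positive T cells, whereas each sample is labelled bone marrow only; the libraries are called bone marrow here after the sample label. Of 10 T cell markers, 6 were the nearest gene of a tested peak within 10 kb (Cd3d, Cd3g, Cd4, Lck, Cd2 and Cd5). Cd3e, Cd8a, Cd8b1 and Bcl11b were not. Each of these peaks went only to its nearest gene. A gene said to have no peak, here and below, may thus have one within 10 kb that lies nearer to a neighbour. Peaks were found at 14 of 14 erythroid, 14 of 15 neutrophil and 10 of 10 B cell markers.

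Depth ranged from 7668099 to 12756647 counts in peaks per library, and single values of the 46 peaks ranged from 8 to 1033 counts. All 18-month females were sequenced in run 14, all 18-month males in run 15 and the 3-month mice in runs 28 to 31. No run held both ages, so age and run cannot be told apart in any comparison here, and at 18 months neither can sex and run. The library of the 3-month male of run 30 stood apart from the other 3-month libraries: the 10 genes together had 962 CPM there (CPM being the count scaled to the library size), against 734 to 809 CPM in the other 5 and 920 to 1003 CPM at 18 months. It had the highest 3-month value for 7 of the 10 genes, and results that change without it are given with that value.

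Before the values, the bases just upstream of the start are shown for 4 genes with a peak over the start: Tlr9, whose start peak was higher at 18 months, and Nod1, Tlr2 and Myd88, whose start peaks did not pass the test. Whether these start peaks differ from one another in their age effect was not tested. Start sites and sequence are those of RefSeq on GRCm38.p6, which had an entry for 8 of the 10 genes. Each line holds the 250 bases before the start, read 5′ to 3′ on the gene's strand, with matches to the searched motifs in capitals. The windows are chr9:106222348-106222597 on the plus strand for Tlr9, chr6:54972613-54972862 on the minus strand for Nod1, chr3:83841609-83841858 on the minus strand for Tlr2 and chr9:119340019-119340268 on the minus strand for Myd88, and all 250 bases of each lay in a peak.
Tlr9: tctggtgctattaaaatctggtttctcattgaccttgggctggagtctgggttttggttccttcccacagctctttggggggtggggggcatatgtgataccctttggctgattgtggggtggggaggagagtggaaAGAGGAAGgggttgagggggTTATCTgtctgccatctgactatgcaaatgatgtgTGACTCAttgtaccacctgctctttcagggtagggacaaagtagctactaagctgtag
Nod1: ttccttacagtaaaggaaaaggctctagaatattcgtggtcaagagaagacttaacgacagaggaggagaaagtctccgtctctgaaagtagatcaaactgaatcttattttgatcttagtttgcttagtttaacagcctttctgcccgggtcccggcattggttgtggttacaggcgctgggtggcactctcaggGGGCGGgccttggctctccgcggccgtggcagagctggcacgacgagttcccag
Tlr2: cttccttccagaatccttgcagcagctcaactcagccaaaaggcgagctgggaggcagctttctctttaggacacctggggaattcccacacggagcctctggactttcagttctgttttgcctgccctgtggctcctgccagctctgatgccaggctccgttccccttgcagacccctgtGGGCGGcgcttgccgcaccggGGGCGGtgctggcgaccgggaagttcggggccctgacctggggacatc
Myd88: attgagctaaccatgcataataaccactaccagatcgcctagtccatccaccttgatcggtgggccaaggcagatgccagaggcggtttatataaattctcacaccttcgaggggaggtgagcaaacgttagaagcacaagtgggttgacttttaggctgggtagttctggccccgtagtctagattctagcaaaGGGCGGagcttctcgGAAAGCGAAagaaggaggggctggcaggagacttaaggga

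In the Tlr9 window the capitals mark, from left to right, a PU.1 match (AGAGGAAG, 113 to 106 bases before the start), a GATA match on the other strand (TTATCT, 93 to 88 bases before it) and an AP-1 match (TGACTCA, 58 to 52 bases before it). The Nod1 window held 1 match to the Sp1 motif (GGGCGG, 54 to 49 bases before the start) and the Tlr2 window held 2, at 69 to 64 and 48 to 43 bases. The Myd88 window held an Sp1 match at 55 to 50 bases and an IRF match, GAAAGCGAA, at 40 to 32 bases before the start. These matches are a description of letters and were not tested as sites.

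The motifs were searched on both strands, and over the 32851 promoter windows of the same length from RefSeq the NF-kB motif GGGANTTTC was in 0.941%, the AP-1 motif TGANTCA in 6.75%, the C/EBP motif TTGCNNAA in 9.56%, the PU.1 motif AGAGGAAG in 3.67%, the ETS motif CCGGAAG in 6.91%, the IRF motif GAAANNGAA in 7.13%, the GATA motif AGATAA in 9.99% and the Sp1 motif GGGCGG in 32.7%. The PU.1 and ETS motifs share the letters GGAAG, and no match to one in the printed windows overlapped another. None of the member windows held the searched NF-kB letters GGGANTTTC, which says only that these letters are not in these bases. Other forms of the NF-kB motif were not searched.

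Accessibility at 19 of the 46 peaks was higher at 18 months and at 0 it was lower (quasi-likelihood test of age in edgeR, adjusted for sex, Benjamini-Hochberg adjusted over 75164 tested peaks, threshold 0.05). All 46 passed the filter on low counts, and over all tested peaks 9.43% were higher and 11.6% lower. The 46 had a median log2 CPM of 3.66 against 2.85 over all tested peaks, and these shares were not matched for coverage. At an unadjusted p under 0.05, 1 of the 46 was lower, as were 16.7% of all peaks, and DESeq2 called 18 higher and 0 lower. The log2 fold change was above 0 at 36 peaks and below 0 at 10, with a median of 0.26 against 0.02 over all peaks. At 8 of the 46 peaks every 18-month library lay above every 3-month library, which held for 2.2% of all tested peaks. Of the 19 calls, 13 held without each library in turn and 6 did not; those 6 are marked where they are described.

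Summed over the peaks of a gene, 8 of the 10 genes were higher at 18 months and 0 were lower, where 18.3% of 15312 tested genes were higher and 18.3% lower. These sums were scaled to the counts in peaks with a gene. On the scale of the peak test, tried after the data were seen, 5 of the 10 were higher and 0 lower, where 10.5% of all genes were higher and 25.0% lower. The 5 were Tlr1, Tlr2, Tlr4, Tlr9 and Nod1; the median log2 fold change of the 10 genes was 0.21 on that scale and 0.29 on the gene scale, beside -0.06 and 0.01 over all genes. On the gene scale, which is used below unless stated, the 8 were Tlr1, Tlr2, Tlr4, Tlr5, Tlr6, Tlr9, Cd14 and Nod1, and DESeq2 called 8 as well; 0 of the 10 genes was lower at an unadjusted p under 0.05, where 22.4% of all genes were. For Myd88 and Nod2 the test did not pass. The ages did not overlap for 4 genes, Tlr1, Tlr4, Tlr9 and Nod1, as for 5.45% of all genes. In libraries made from many cells together, more cells of a type that carries an open region and more accessibility in each such cell cannot be told apart.

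**Figure D1:**
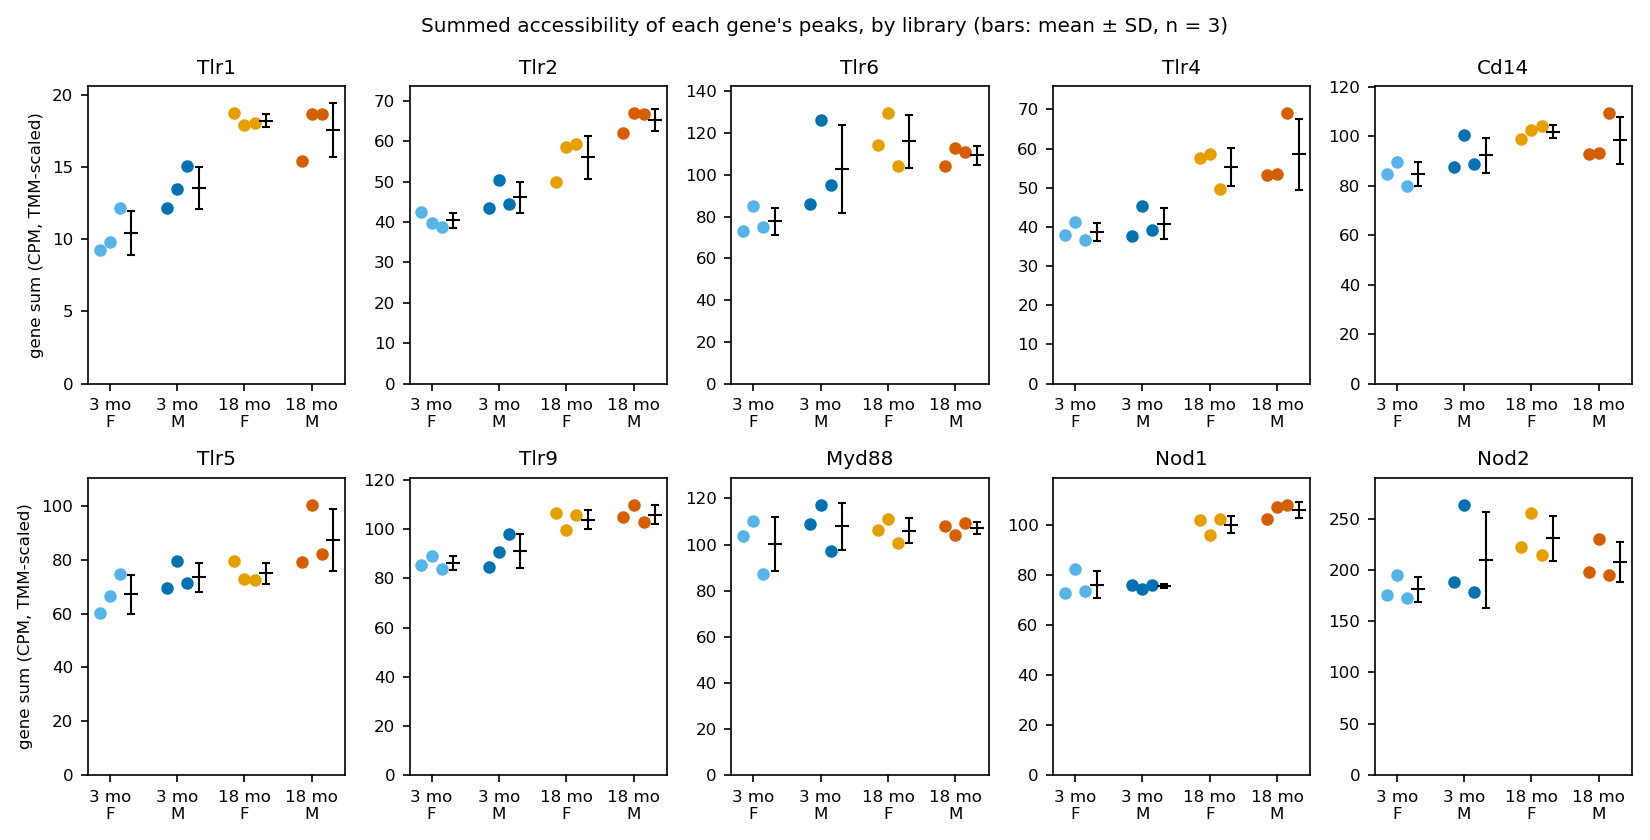
Summed accessibility of each gene's peaks in CPM (y axis, from 0) for the 12 libraries, by age and sex (x axis); points are libraries and bars mean ± SD of 3. For Tlr1, Tlr4, Tlr9 and Nod1 all 6 libraries of 18-month mice lie above all 6 of 3-month mice, while for Myd88 the ages overlap.

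Tlr1, which forms the receptor for triacylated lipopeptides with TLR2, had the largest log2 fold change of the 10 genes. Its summed CPM was 9.29 at the lowest, 12.2 at the median and 15.1 at the highest among the 6 libraries at 3 months, and 15.4, 18.4 and 18.8 at 18 months. The ages did not overlap, and the log2 fold change was 0.58 (SE 0.12, adjusted p = 0.000406). Both Tlr1 peaks lie outside the gene, which spans chr5:64924680-64933600, and none was found over either of its annotated starts.

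The more accessible Tlr1 peak, chr5:64922864-64923578, has its centre 1459 bp from the gene and ran from 5.5 through 7.46 to 9.18 CPM at 3 months and from 7.32 through 10.7 to 12.1 CPM at 18 months. These ranges overlap, and the log2 fold change was 0.46 (SE 0.15, adjusted p = 0.021). The other, chr5:64935423-64935712, lies 1967 bp beyond the opposite end and held 2.03, 2.76 and 3.59 CPM at 3 months against 3.81, 4.14 and 5.44 CPM at 18 months. There the ages did not overlap (log2 fold change 0.62, SE 0.20, adjusted p = 0.0225). Both calls were lost with library offsets fitted on peak width (adjusted p = 0.0534 and 0.0948). The first was also lost without any of 5 libraries (18-month females 35 and 36 and each 3-month female, adjusted p from 0.0506 to 0.0972), the other without any of 3 (18-month male 39, 3-month female of run 29, 3-month male of run 29, adjusted p from 0.0556 to 0.0656).

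Tlr6, the alternative partner of TLR2, which with it binds diacylated lipopeptides, lies next to Tlr1 on chromosome 5 and carried 3 peaks, all inside the gene (chr5:64953092-64970942). The gene sum was 73.1, 85.6 and 126 CPM at 3 months and 104, 112 and 130 CPM at 18 months, at the lowest, median and highest library. The ages overlapped because of the 3-month male of run 30, which had 126 CPM where the other 5 reached at most 95.2 CPM. The log2 fold change was 0.33 (SE 0.09, adjusted p = 0.00572), but on the scale of the peak test it was 0.26 and did not pass (adjusted p = 0.0696).

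Of the Tlr6 peaks only the most accessible, chr5:64960473-64962158, passed the test. It held 30.2, 38.8 and 62.1 CPM at 3 months and 42.5, 50.9 and 67.6 CPM at 18 months, overlapping ranges with a log2 fold change of 0.39 (SE 0.12, adjusted p = 0.0132). The peak at the outer end of the gene, chr5:64969033-64970631, had medians of 19.8 CPM at 3 months and 21.8 CPM at 18 months and a log2 fold change of -0.01 (adjusted p = 0.968). The third peak, over an inner start, had a log2 fold change of 0.24 and an adjusted p of 0.166; without the 3-month male of run 30 it was 0.36 (adjusted p = 0.014), and scaled by total counts 0.32 (adjusted p = 0.0415). The call at the most accessible peak was lost without the 18-month female 36 or the 3-month female of run 28 (adjusted p = 0.0706 and 0.071).

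Tlr2, the shared partner of both, had 3 peaks around a short gene (chr3:83836272-83841824). Its sum was 38.8, 43 and 50.5 CPM at 3 months and 50, 60.7 and 67 CPM at 18 months. The ranges met at their edges, with 5 of 6 libraries at 18 months above the highest at 3 months, and the log2 fold change was 0.48 (SE 0.07, adjusted p = 7.03e-06). The called peaks lay on either side of the start, and the one over it did not pass.

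The peak over the Tlr2 start, chr3:83840976-83841905, whose upstream bases are printed above, held 12.7, 14.6 and 18.5 CPM at 3 months and 15.1, 17.4 and 17.9 CPM at 18 months (log2 fold change 0.18, adjusted p = 0.282). The peak 1854 bp downstream of the start inside the gene, chr3:83839246-83840263, held 10, 10.6 and 12.4 CPM against 13.2, 14.5 and 16.2 CPM. Its ages did not overlap (log2 fold change 0.45, SE 0.12, adjusted p = 0.00502). The peak 3400 bp outside the gene on the upstream side, chr3:83844781-83845667, held 8.3, 11.2 and 15.5 CPM against 14, 17.6 and 20.1 CPM (log2 fold change 0.64, SE 0.12, adjusted p = 0.000133), and here 5 of 6 libraries at 18 months exceeded all 3-month libraries.

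Tlr4, the signalling receptor for lipopolysaccharide, spans chr4:66827551-66846581 and had 4 peaks. Its sum was 36.7, 38.6 and 45.3 CPM at 3 months and 49.7, 55.6 and 69.1 CPM at 18 months. The ages did not overlap, and the log2 fold change was 0.52 (SE 0.08, adjusted p = 1.84e-05).

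The calls at Tlr4 came from the flanks. The peak 5255 bp before the gene, chr4:66821879-66822714, held 3.35, 4.42 and 5.93 CPM at 3 months and 6.62, 8.24 and 9.66 CPM at 18 months, without overlap (log2 fold change 0.81, SE 0.16, adjusted p = 0.000163). The peak 5578 bp past the gene, chr4:66851795-66852524, held 3.73, 5.76 and 6.43 CPM against 5.89, 10.2 and 13.5 CPM (log2 fold change 0.83, SE 0.16, adjusted p = 7.81e-05). The most accessible peak, at the gene's lower-numbered end (chr4:66827349-66828528), did not pass, with 15.7, 19.2 and 24.1 CPM at 3 months, 18.2, 23.6 and 28.5 CPM at 18 months and an adjusted p of 0.0873 at a log2 fold change of 0.27. It passed without the 18-month male 38 (0.34, adjusted p = 0.0421) or the 3-month male of run 30 (0.36, adjusted p = 0.00779), and scaled by total counts or by offsets fitted on abundance (0.35 in both, adjusted p = 0.0139 and 0.0137). With only peaks inside the gene the Tlr4 sum's log2 fold change was 0.31 (adjusted p = 0.0143).

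Cd14 encodes the co-receptor that hands lipopolysaccharide to TLR4. The sum of its 3 peaks was 79.9, 88.2 and 101 CPM at 3 months and 92.7, 101 and 109 CPM at 18 months, with overlap between the ages and a log2 fold change of 0.18 (SE 0.06, adjusted p = 0.0226). The peak over the 1752 bp gene itself, chr18:36725479-36726898, held 12.6, 15 and 18.8 CPM at 3 months and 17, 20.6 and 24.6 CPM at 18 months (log2 fold change 0.46, SE 0.12, adjusted p = 0.00358).

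The peak 4704 bp from Cd14, chr18:36719950-36720770, held 5.8, 6.66 and 8.56 CPM at 3 months and 9.71, 11.3 and 15.3 CPM at 18 months. Its ages did not overlap, and the log2 fold change was 0.75 (SE 0.14, adjusted p = 7.55e-05). The most accessible of the 3, chr18:36734435-36736683, lies 8744 bp from Cd14 and nearer to Tmco6. It made up most of the sum and was not called, with 47.7, 53.9 and 62 CPM at 3 months, 44.8, 49.1 and 54.1 CPM at 18 months and a log2 fold change of -0.14 (adjusted p = 0.312). The call on the Cd14 sum was lost without any of 4 libraries (18-month female 42, 18-month male 40, 3-month females of runs 28 and 31), with adjusted p from 0.0527 to 0.0684, and on the scale of the peak test the sum's log2 fold change was 0.10 (adjusted p = 0.292). On the most accessible peak alone the gene test gave -0.02 (adjusted p = 0.867). This is the same peak as the -0.14 above, with counts scaled over the most accessible peak of each gene. Sums that leave that peak out were higher by more: the log2 fold change was 0.53 (adjusted p = 0.000445) for peaks inside the gene, 0.63 (adjusted p = 2.26e-05) within 5 kb and 0.63 (adjusted p = 2.07e-05) with each peak given to its nearest gene of any kind.

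Tlr5, the flagellin receptor, was higher as a gene sum but at 0 of its 4 peaks. The sum was 60.4, 70.5 and 79.6 CPM at 3 months and 72.5, 79.3 and 101 CPM at 18 months, with 2 of 6 libraries at 18 months above the highest at 3 months (log2 fold change 0.20, SE 0.07, adjusted p = 0.0233). The peak over its start, chr1:182953287-182955593, was the most accessible, with 20.6, 23.9 and 32.3 CPM at 3 months, 25.8, 26.5 and 34.1 CPM at 18 months and a log2 fold change of 0.16 (adjusted p = 0.287). The start peak passed with library offsets fitted on abundance (0.28, adjusted p = 0.0353) or on peak width (0.34, adjusted p = 0.0196). The other 3 peaks had log2 fold changes from -0.02 to 0.21. The call on the sum was lost without any of 4 libraries (18-month female 35, 18-month male 39, 3-month female of run 28, 3-month male of run 29), with adjusted p from 0.056 to 0.0904, on the scale of the peak test (0.13, adjusted p = 0.185) and with only peaks inside the gene (0.20, adjusted p = 0.197).

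Tlr9, the endosomal receptor for CpG DNA, had 5 peaks around a compact gene (chr9:106222598-106226876), 3 of them nearer to the neighbours Twf2 or Alas1. Its sum was 83.8, 87.3 and 98.2 CPM at 3 months and 99.6, 105 and 110 CPM at 18 months. The ages did not overlap, although the log2 fold change was only 0.24 (SE 0.05, adjusted p = 0.000815).

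The Tlr9 peak that passed, chr9:106222091-106224658, is 2568 bp wide and covers the start and the PU.1, GATA and AP-1 matches printed above. It held 22.3, 25.1 and 29 CPM at 3 months and 29.5, 30.7 and 32.8 CPM at 18 months, without overlap (log2 fold change 0.29, SE 0.10, adjusted p = 0.0292). This call was lost without any of 5 libraries (18-month females 35 and 36 and each 3-month female, adjusted p from 0.0623 to 0.0806), and with offsets fitted on peak width the log2 fold change was 0.47 (adjusted p = 0.000249). The other 4 peaks had log2 fold changes from -0.10 to 0.28 and adjusted p-values from 0.111 to 0.878. Without the 3-month male of run 30, 1 of them, nearer to Alas1, passed (0.34, adjusted p = 0.0341), as it did scaled by total counts (0.36, adjusted p = 0.0289). Tlr9 and Cd14 were the only genes among the 10 where a peak at a gene end was called.

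Myd88, the adaptor used by all Toll-like receptors except TLR3, was not called. Its sum was 87.3, 106 and 117 CPM at 3 months and 101, 107 and 111 CPM at 18 months, so the 18-month libraries lay within the 3-month range (log2 fold change 0.04, SE 0.06, adjusted p = 0.673; -0.04 on the scale of the peak test). Most of it came from the widest of the 46 peaks, chr9:119339034-119342816, 3783 bp wide, which covers the Myd88 start with the IRF match printed above and also lies nearer by its centre to Acaa1a, the gene next to it. That peak held 60.4, 77.3 and 87.6 CPM at 3 months and 68, 71.3 and 82.3 CPM at 18 months, with a log2 fold change of -0.03 (SE 0.09, adjusted p = 0.837). With library offsets fitted on abundance it turned to 0.19 and passed (adjusted p = 0.0257), and with offsets fitted on peak width it was also 0.19 but did not pass. The other 2 peaks had log2 fold changes of 0.01 and -0.29 with adjusted p-values of 0.98 and 0.305.

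Nod1, the cytosolic sensor of peptidoglycan fragments containing diaminopimelic acid, had the smallest adjusted p of the 10 genes and 6 of the 19 called peaks. Its 9 peaks spread along a gene of 48733 bp (chr6:54923942-54972674), and the sum was 72.9, 75.1 and 82.2 CPM at 3 months and 96.1, 102 and 108 CPM at 18 months. The ages were well separated, and the log2 fold change was 0.44 (SE 0.05, adjusted p = 1.04e-06).

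The most accessible Nod1 peak, chr6:54933585-54935399, lies in the gene 37169 bp downstream of the start and held 16.9, 19.3 and 22 CPM at 3 months and 22.1, 24 and 28.9 CPM at 18 months. The ages just failed to overlap (log2 fold change 0.34, SE 0.10, adjusted p = 0.0116). The smallest p was at chr6:54925697-54926284, also inside the gene, with 2.66, 4.03 and 4.9 CPM against 6.29, 7.87 and 9.03 CPM. This was close to a doubling, again without overlap (1.96-fold between the means, log2 fold change 0.97, SE 0.17, adjusted p = 1.92e-05).

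Nearest to the start among the called Nod1 peaks was chr6:54964756-54965303, 6632 bp downstream, with 1.67, 2.7 and 3.81 CPM at 3 months and 3.76, 5.68 and 7.65 CPM at 18 months (log2 fold change 0.98, SE 0.20, adjusted p = 0.000311). A peak 15475 bp downstream, chr6:54955606-54956767, held 8.32, 10.3 and 12.4 CPM against 12, 13.9 and 16.8 CPM (log2 fold change 0.46, SE 0.12, adjusted p = 0.00584). In both, 5 of 6 libraries at 18 months exceeded every 3-month library. The remaining called peaks were chr6:54917658-54917980, beyond the far end of the gene, and chr6:54954786-54955308 inside it (log2 fold change 0.65, adjusted p = 0.0115). The former held 2.85, 4.09 and 4.63 CPM at 3 months and 5.52, 5.76 and 7.09 CPM at 18 months, without overlap (log2 fold change 0.61, SE 0.17, adjusted p = 0.00751).

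The peak over the Nod1 start, chr6:54972169-54973161, was not among the called ones. It held 8.05, 14.4 and 18.1 CPM at 3 months and 10.8, 11.5 and 14 CPM at 18 months, so that the 18-month range lay inside the 3-month range (log2 fold change -0.19, SE 0.13, adjusted p = 0.316). The bases upstream of this start are those printed above with a single Sp1 match.

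Nod2, which detects muramyl dipeptide, had the most peaks, 10, but the gene was not called. Its sum was 172, 183 and 264 CPM at 3 months and 195, 218 and 256 CPM at 18 months, and the highest library of all was the 3-month male of run 30 with 264 CPM, where the other 5 reached at most 195 CPM. The log2 fold change was 0.17 (SE 0.08, adjusted p = 0.117), and on the scale of the peak test it was 0.09 (adjusted p = 0.517). Without the 3-month male of run 30 it was 0.27 on the gene scale (adjusted p = 4.22e-05).

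Of the 10 peaks of Nod2, 3 were higher at 18 months. The most accessible, chr8:88695828-88697809, lies past the gene, nearer to Cyld, and held 56, 63.8 and 93.5 CPM at 3 months and 46.4, 56.6 and 80.2 CPM at 18 months (log2 fold change -0.23, SE 0.11, adjusted p = 0.127). The most accessible of the called peaks, chr8:88650080-88651571, lies 3478 bp downstream of the start and held 13, 14.1 and 19.2 CPM against 17.7, 19.9 and 22.2 CPM (log2 fold change 0.42, SE 0.11, adjusted p = 0.00572). Without the 18-month female 36 the peak near Cyld was lower at 18 months (-0.33, adjusted p = 0.0156), and a peak inside the gene passed (0.37, adjusted p = 0.0369). Without the 3-month male of run 30, 3 more peaks passed (log2 fold changes 0.52, 0.32 and 0.55), and scaled by total counts 2 more (0.39 and 0.45). With only peaks inside the gene counted, the gene's log2 fold change was 0.34 (adjusted p = 0.00238).

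The other called peaks assigned to Nod2 lie upstream of it. One, chr8:88642770-88643121, was the least accessible of the 10, with 0.835, 1.46 and 2.9 CPM at 3 months and 1.91, 2.92 and 3.52 CPM at 18 months (log2 fold change 0.78, SE 0.26, adjusted p = 0.0285). The other, chr8:88637250-88638152, lies nearer to Snx20 and held 11.7, 13.8 and 19.1 CPM against 15.7, 18.5 and 22.2 CPM (log2 fold change 0.34, SE 0.12, adjusted p = 0.0353). In both the ages overlapped, and each call was lost without any of 7 libraries (adjusted p from 0.0528 to 0.0719 and from 0.0618 to 0.13). Common to both were the 18-month female 35, the 18-month male 39 and the 3-month females of runs 29 and 31; the first also lost its call without the 18-month male 38 or the 3-month males of runs 29 and 30, and the second without the 18-month female 36, the 3-month female of run 28 or the 3-month male of run 31. The first was also lost with offsets fitted on abundance or peak width (adjusted p = 0.0756 and 0.0768), and the second in DESeq2 and with offsets fitted on peak width (adjusted p = 0.0524 and 0.0573). The peak over the Nod2 start had a log2 fold change of -0.01 (adjusted p = 0.971).

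**Figure D2:**
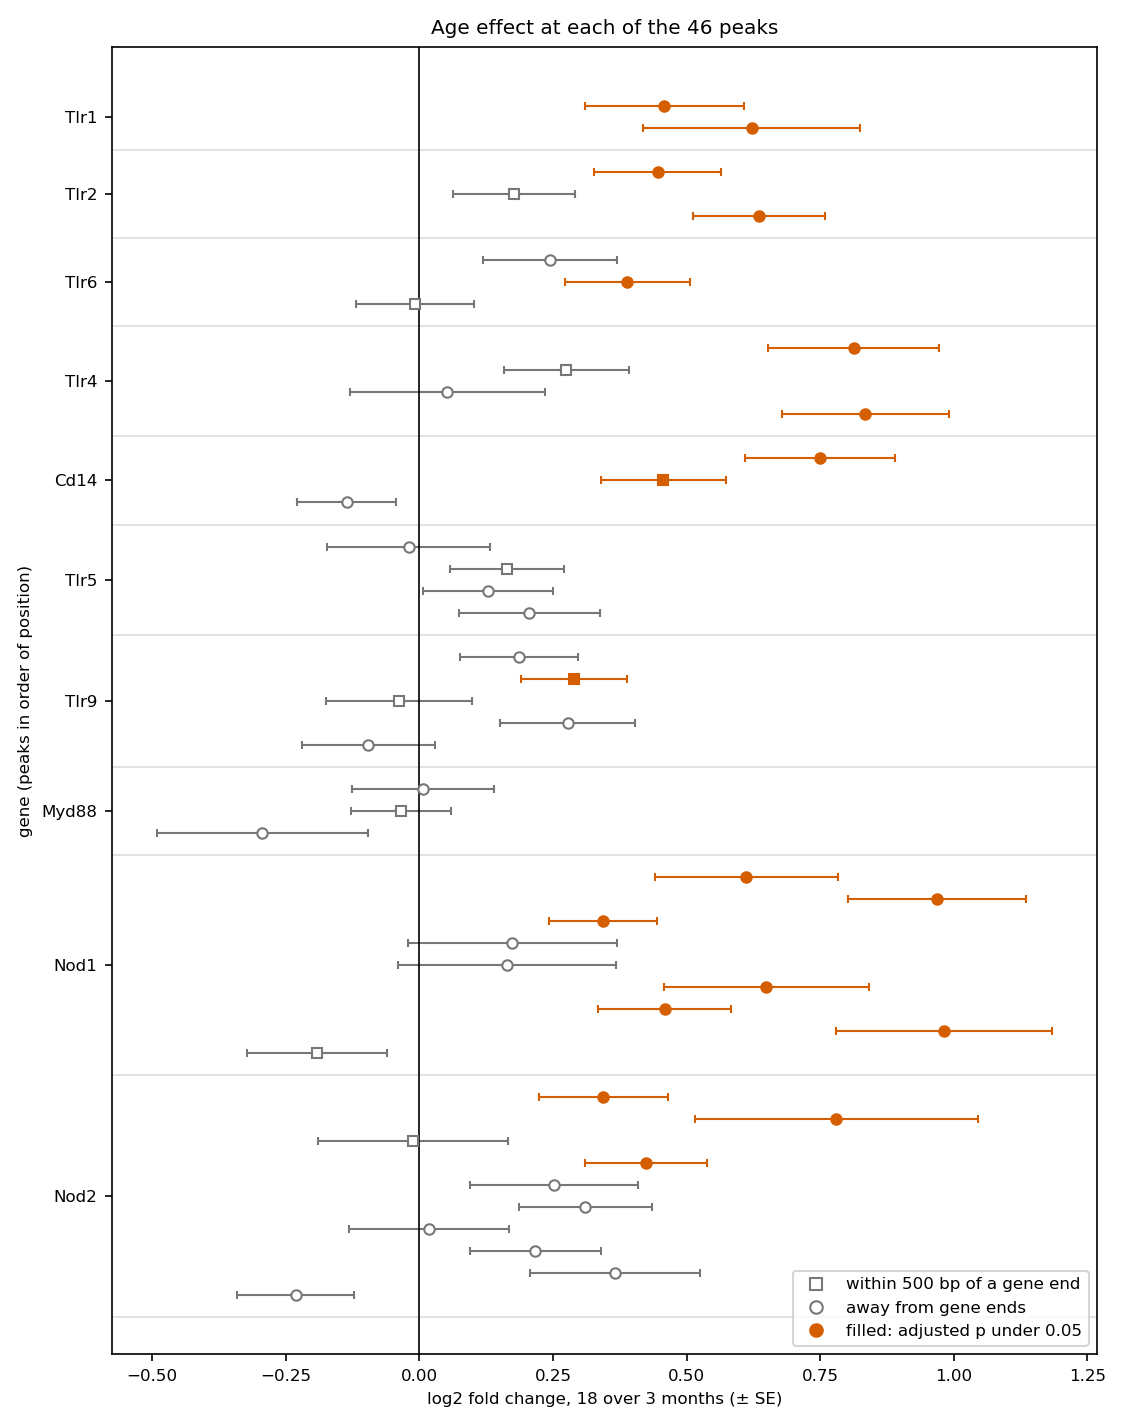
Age effect at each of the 46 peaks as log2 fold change of 18 over 3 months with its SE (x axis), grouped by gene in order of position (y axis); squares are peaks within 500 bp of a gene end, and filled orange symbols passed the threshold. The 19 filled symbols all lie to the right of 0, and 17 of them are circles.

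Of the 10 peaks within 500 bp of an end of their gene, 2 were higher at 18 months, at Cd14 and Tlr9, and their median log2 fold change was 0.08, where 3.93% of all peaks so placed were higher with a median of -0.13. Of the 36 peaks away from the ends, 17 were higher, with a median of 0.33, where 8.34% of all such peaks were higher with a median of 0.03. Over all genes, too, peaks at ends were less often higher and had the lower median, so the order of these shares is not particular to the sensor genes. Peaks nearest to their own gene accounted for 18 of the 19 calls, among 37 such peaks with a median of 0.29, whereas the 9 peaks nearer to another gene gave 1 call and a median of -0.03. Over all peaks with a gene within 10 kb, 7.35% were higher, with a median of -0.01. Exons and introns were not used here, so a peak is placed only by its distance to the gene and its starts.

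A test of the difference was added after these values had been seen. For each gene with peaks of both kinds the log2 ratio of counts away from the ends to counts at the ends was compared between ages (limma, adjusted over 8274 genes), which was possible for 9 of the 10 genes, since Tlr1 had no peak at an end. The ratio was higher at 18 months for Nod1 (change in log2 ratio 0.66, SE 0.16, adjusted p = 0.0211) and Tlr2 (0.36, SE 0.11, adjusted p = 0.0461) and lower for Cd14 (-0.46, SE 0.11, adjusted p = 0.0177). Over all genes 10.1% had a higher and 1.32% a lower ratio, and the median change was 0.16.

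For Nod1 the peaks away from the ends averaged 51.2 CPM in sum at 3 months and 71.7 CPM at 18 months, against 13.8 and 12 CPM at the end. The Nod1 call was lost without the 18-month female 42 (adjusted p = 0.0521), and the Tlr2 call without any 1 of the 12 libraries (adjusted p from 0.0501 to 0.109). For Cd14 the peaks away from the end include the one nearer to Tmco6, and with each peak given to its nearest gene of any kind the change was 0.30 with an adjusted p of 0.103. Tlr4 and Tlr6 had changes of 0.36 each that did not pass (adjusted p = 0.11 and 0.0921).

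**Figure D3:**
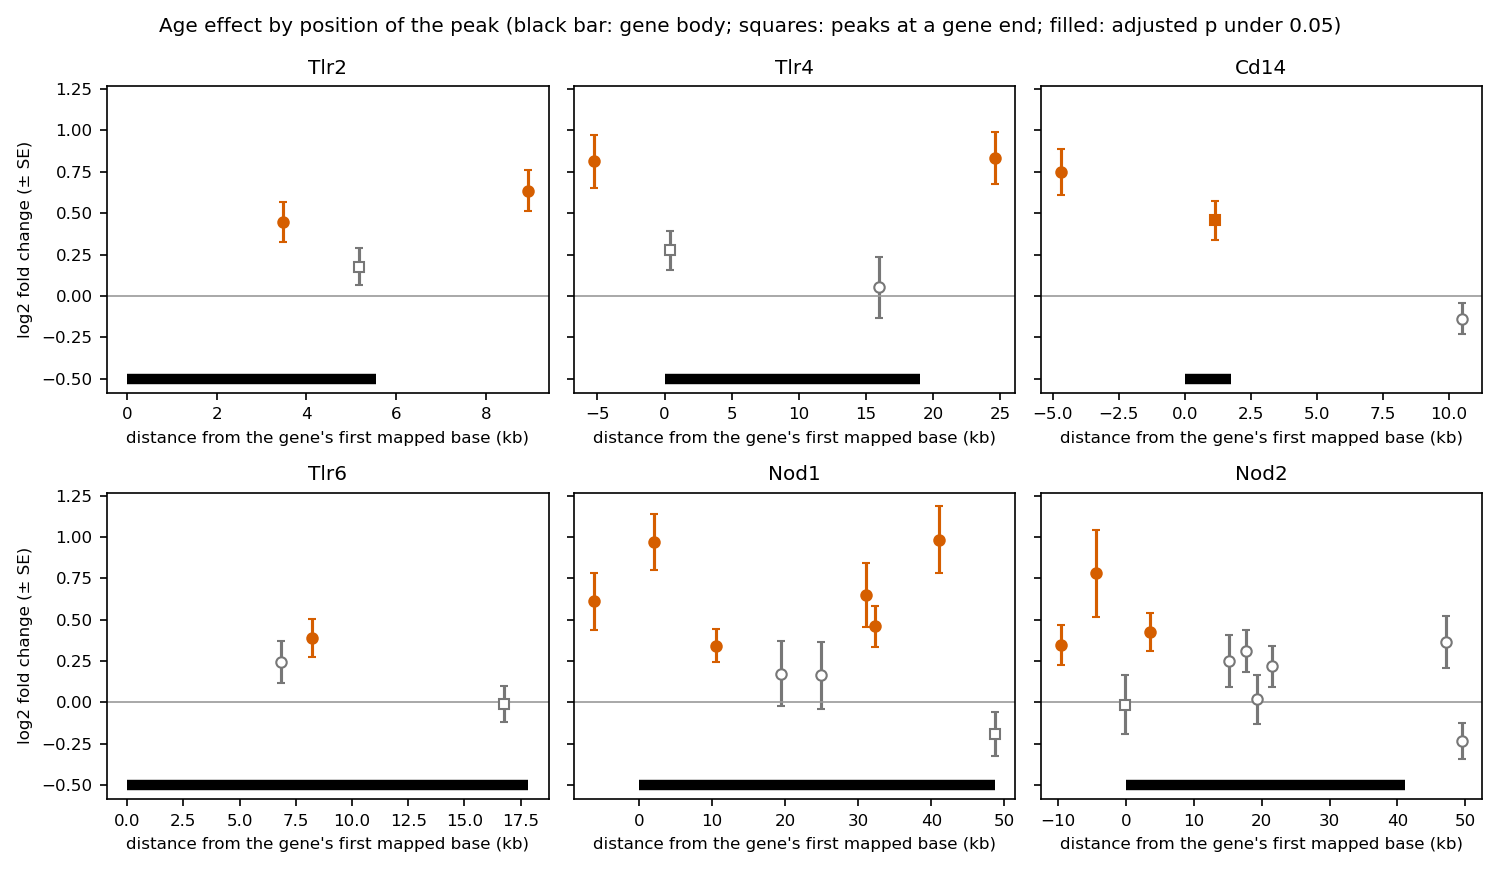
Log2 fold change of 18 over 3 months with its SE (y axis) against the distance of each peak from the gene's lowest-numbered base in kb (x axis) for 6 genes; the black bar is the gene, squares are peaks at a gene end and filled symbols passed the threshold. At Nod1 the square at the right end of the gene lies below 0, while 6 circles along the gene and beyond its other end are filled.

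Within females the age difference passed for 8 genes, Tlr1, Tlr2, Tlr4, Tlr6, Tlr9, Cd14, Nod1 and Nod2, and within males for 4, Tlr2, Tlr4, Tlr9 and Nod1 (model of 4 group means, edgeR), where 12.7% of all genes were higher in females and 10.6% in males. Tlr5, called over both sexes, passed in neither (adjusted p = 0.24 in females and 0.0634 in males), while Nod2, not called over both, passed in females (log2 fold change 0.35, adjusted p = 0.0118). On the scale of the peak test 6 genes passed in females (8.52% of all genes), without Cd14 and Nod2, and 3 in males (4.87%), without Tlr9. Of the peaks, 17 were higher in females (5.7% of all peaks) and 7 in males (3.21%), and 1 was lower in males, the peak between Nod2 and Cyld (log2 fold change -0.52, adjusted p = 0.0069). Over all peaks 8.18% were lower in males and 6.2% in females, where 0 of the 46 were. All 19 peaks called over both sexes had a log2 fold change above 0 in each sex, and 14 of them passed in females, 7 in males and 5 in both. The size was near 0 in males at some: in females and males it was 0.90 and 0.02 at the Tlr1 peak chr5:64922864-64923578, 0.73 and 0.06 at the Tlr6 peak chr5:64960473-64962158, and 0.59 and 0.10 at the Nod2 peak chr8:88637250-88638152. The adjusted p in males was 0.963, 0.856 and 0.77 at these peaks. With 3 libraries per group these counts do not show that the sexes differ, which the interaction of age and sex tests directly.

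No peak or gene among the members passed for the interaction (edgeR), as for 0.00532% of all peaks and 0% of all genes. The smallest adjusted p was 0.264 among the 46 peaks and 0.27 among the 10 genes. At an unadjusted p under 0.05 there were 9 of 46 peaks, all with the lower log2 fold change in males, and 2 of 10 genes, where 10.0% of all peaks and 12.6% of all genes stood. Those genes were Tlr6 (log2 difference of the age effects, males minus females, -0.49, SE 0.15, adjusted p = 0.27) and Nod2 (-0.37, SE 0.14, adjusted p = 0.318).

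For Tlr6 the mean level in females was 77.8 ± 6.42 CPM (SD, n = 3) at 3 months and 116 ± 12.9 CPM (SD, n = 3) at 18 months, and in males 103 ± 21.1 CPM (SD, n = 3) and 109 ± 4.64 CPM (SD, n = 3). For Nod2 it was 181 ± 12.5 CPM (SD, n = 3) and 231 ± 22 CPM (SD, n = 3) in females and 210 ± 46.7 CPM (SD, n = 3) and 208 ± 19.6 CPM (SD, n = 3) in males. The wide spread of the 3-month males came from the male of run 30 in both genes. In females and males the log2 fold change was 0.47 and 0.50 for Tlr2, 0.52 and 0.52 for Tlr4, and 0.39 and 0.49 for Nod1, with differences of 0.03 (SE 0.14), -0.00298 (SE 0.16) and 0.09 (SE 0.11).

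The level itself did not pass for sex at any member peak or gene (edgeR, age as covariate), where 0.162% of all peaks and 0.3% of all genes did. At an unadjusted p under 0.05 there were 3 of 46 peaks and 2 of 10 genes, Tlr2 and Tlr5, where 7.57% of all peaks and 11.8% of all genes stood. All 10 genes had a log2 difference of males minus females above 0, from 0.03 to 0.21, beside a median of 0.01 over all genes. At 3 months runs 29 and 31 each held a female and a male, and with run as a block there, tried after the data were seen, 6 of the 10 genes were above 0 (from -0.03 to 0.31), where 9 were without the block. In both fits 0 of the genes and peaks passed, but few did anywhere: 0.0588% of all genes and 0.0545% of all peaks with the block, and 0.0784% and 0.106% without it. At an unadjusted p under 0.05 there were 0 genes and 3 peaks with the block, where 4.98% of all genes and 5.28% of all peaks stood, and 3 genes and 9 peaks without it, where 8.28% and 6.68% stood.

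**Figure D4:**
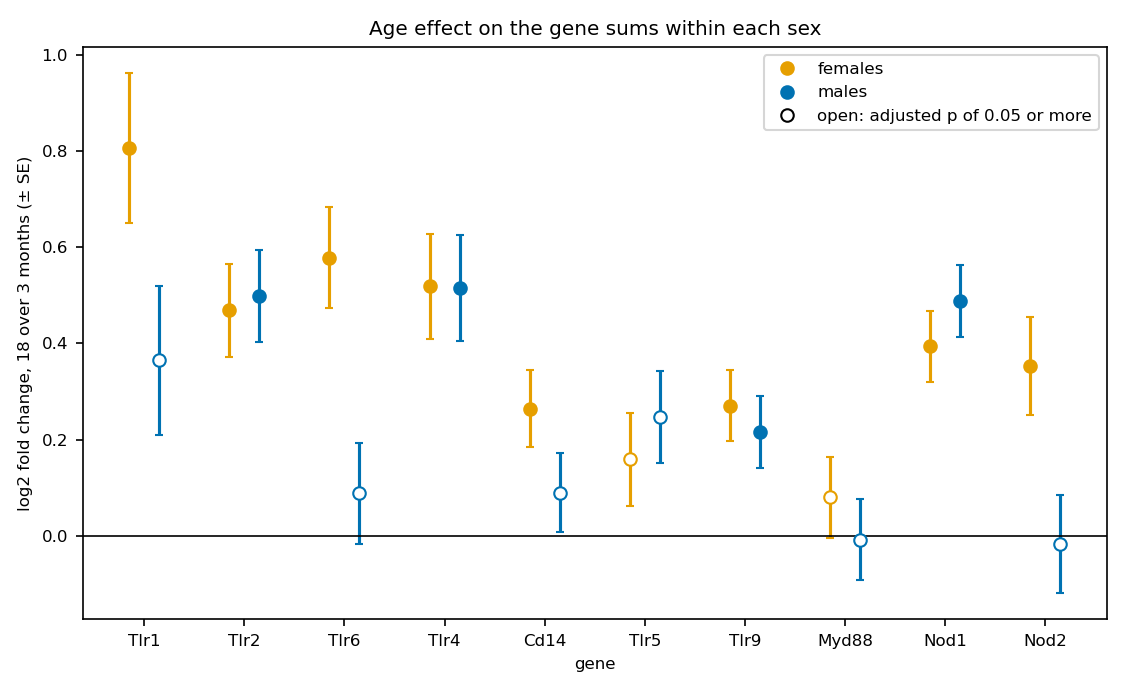
Age effect on the gene sums as log2 fold change of 18 over 3 months with its SE (y axis) for each gene (x axis), in females and males; open symbols did not pass. The sexes lie apart by 0.49 at Tlr6 and by under 0.1 at Tlr2, Tlr4 and Nod1, and no difference between them passed after adjustment.

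The other genes of the pathway were described by 6 lists of 66 genes, 65 of which had a peak. In the same gene fit 24 were higher, 9 lower and 32 passed in neither direction, that is 36.9% higher and 13.8% lower beside the 18.3% of all genes in each direction, with a median log2 fold change of 0.11. On the scale of the peak test 13 were higher and 11 lower, with a median of 0.04 beside the 10.5% higher and 25.0% lower of all genes there. Among the genes named below, Tlr13 (0.26, adjusted p = 0.149), Irak3 (0.12, adjusted p = 0.185), Card9 (0.14, adjusted p = 0.0782) and Slc15a4 (0.18, adjusted p = 0.116) did not pass there. Among the Toll receptors outside the 10, 2 of 5 with a peak were higher and 0 lower: Tlr3, the endosomal receptor for double-stranded RNA (log2 fold change 0.68, adjusted p = 0.00114), and Tlr13, which reads bacterial ribosomal RNA (0.34, adjusted p = 0.0309). Tlr7, Tlr8 and Tlr12 had log2 fold changes of 0.09, -0.06 and 0.06 and did not pass.

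Of 10 accessory and trafficking genes, 5 were higher and 2 lower. Lbp, the serum protein that delivers lipopolysaccharide to CD14, had 29.4, 34 and 43.4 CPM at 3 months and 47.3, 50.7 and 58.4 CPM at 18 months, without overlap (log2 fold change 0.55, adjusted p = 9.74e-06). Ly86, which encodes MD-1, the partner of the receptor-like protein RP105, was higher by 0.45 (adjusted p = 8.17e-05), and Ly96, which encodes MD-2, the lipopolysaccharide-binding partner of TLR4, by 0.44 (adjusted p = 0.00124). The lower genes were Cd36, a scavenger receptor that can present ligands to TLR2 and TLR6 (-0.30, adjusted p = 0.000355), and Ctsb, a lysosomal protease (-0.16, adjusted p = 0.0172).

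Of 21 adaptors and kinases 7 were higher and 3 lower. The 3 higher genes with the smallest p were Ikbke, an IKK-related kinase of the interferon branch (log2 fold change 0.34, adjusted p = 0.000535), Traf3, a ubiquitin ligase of the same branch (0.25, adjusted p = 0.000566), and Irf5, a transcription factor activated downstream of MYD88 (0.27, adjusted p = 0.00149). The lower ones were Tab3 and Tab1, subunits of the TAK1 kinase complex (-0.40 and -0.25, adjusted p = 0.000495 and 0.00082), and Irak1, a kinase recruited by MYD88 (-0.43, adjusted p = 0.00228).

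Of 12 negative regulators, 1 was higher, Irak3, an inhibitory member of the IRAK family (0.19, adjusted p = 0.0122), and 1 lower, Rnf216, a ubiquitin ligase (-0.22, adjusted p = 0.00102). Of 9 partners of NOD1 and NOD2, 4 were higher, led by Birc3, a ubiquitin ligase of the NOD complex (0.32, adjusted p = 0.00235), Card9, an adaptor (0.22, adjusted p = 0.00295), and Slc15a4, an endolysosomal transporter of peptidoglycan fragments (0.26, adjusted p = 0.00677), and 1 was lower, Birc2 (-0.18, adjusted p = 0.0338). Ripk2, the kinase both NOD proteins need, had a log2 fold change of -0.06 and an adjusted p of 0.555. Of 8 cytosolic sensors of nucleic acids 5 were higher and 2 lower, the former led by Aim2 (0.36, adjusted p = 4.2e-05), Ddx58 (0.41, adjusted p = 0.000165) and Zbp1 (0.43, adjusted p = 0.000466), the latter being Mavs (-0.29, adjusted p = 6.08e-05) and Ifih1 (-0.14, adjusted p = 0.0465).

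Markers of some of the cell types that marrow holds also differed between the ages. Of 14 neutrophil markers with a peak (Elane had none) 11 were higher and 0 lower, with a median log2 fold change of 0.45. Their sum ran from 1008 to 1563 CPM at 3 months and from 1377 to 1677 CPM at 18 months. The highest 3-month value was again that of the 3-month male of run 30, and the other 5 reached at most 1190 CPM. Of 11 monocyte or macrophage markers with a peak (C1qa, C1qb and C1qc had none) 7 were higher and 0 lower, and their sum of 340 to 375 CPM at 3 months did not overlap the 397 to 428 CPM at 18 months.

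Erythroid markers fell at all 14 of 14 genes, from a sum of 1872 to 2241 CPM at 3 months to 1160 to 1364 CPM at 18 months, and 3 of 6 megakaryocyte markers (Ppbp had no peak) were lower. Of the B cell markers 1 of 10 was higher, of the T cell markers 2 of 6 were higher and 1 lower, of the natural killer cell markers 1 of 6 was higher (Ncr1 and Gzmb had no peak) and of the plasmacytoid dendritic cell markers 1 of 6 was higher (Klk1 had none). On the scale of the peak test 10 neutrophil markers were higher, 5 monocyte or macrophage markers were higher and 1 lower, and all 14 erythroid markers were lower. On that scale 0 natural killer and 0 plasmacytoid dendritic cell markers passed, and 1 T cell marker was higher and 1 lower. The part of these markers in the differences at the sensor genes was not tested.

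**Figure D5:**
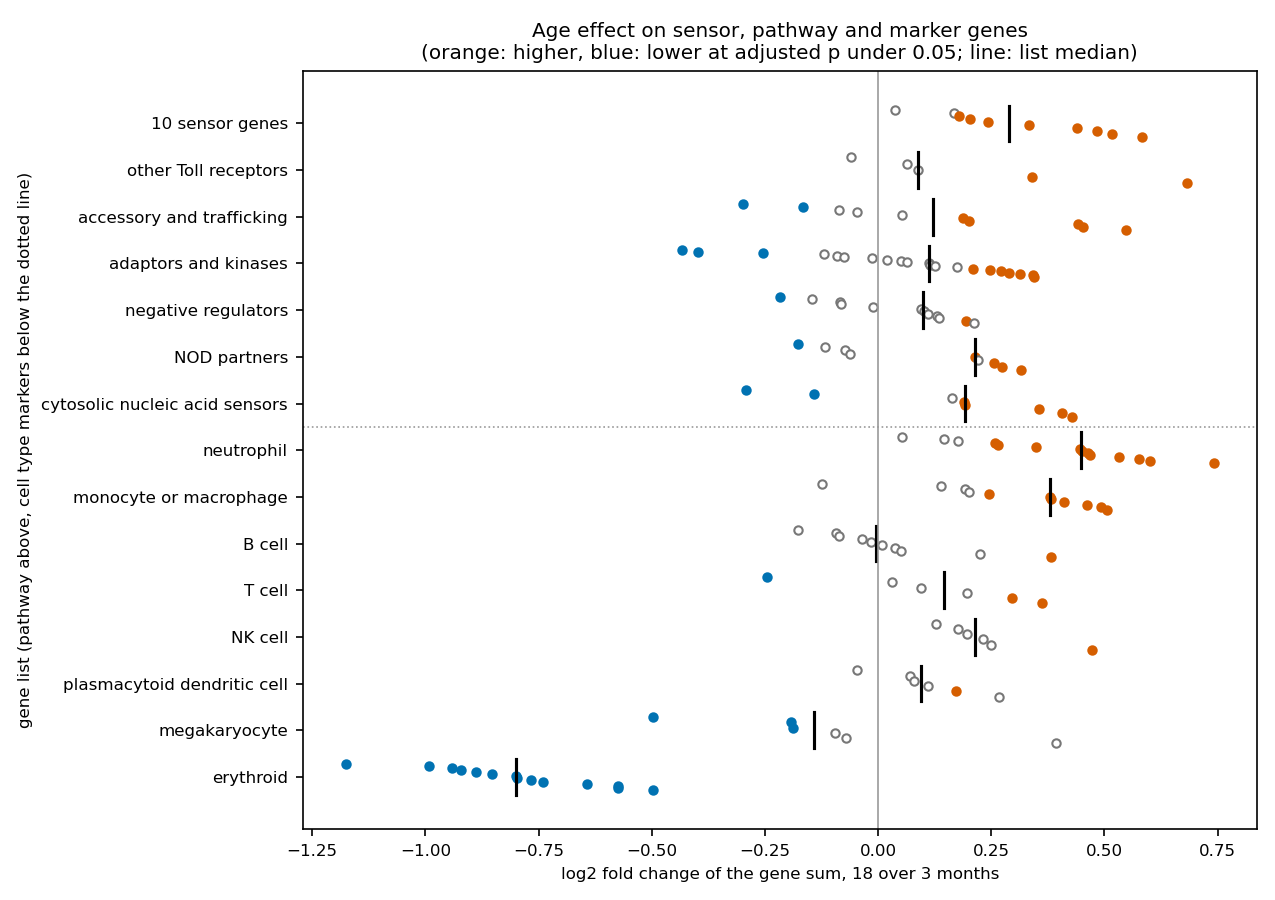
Log2 fold change of the gene sum, 18 over 3 months (x axis), for each gene of the sensor, pathway and marker lists (y axis); orange points were higher and blue points lower at an adjusted p under 0.05, and the black line is the list's median. The median is 0.29 for the 10 sensor genes, 0.45 for the neutrophil markers and -0.80 for the erythroid markers.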

How the data were processed

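The authors deposited 1 table of read counts, as whole numbers, over 75281 consensus peaks in the 12 libraries. Per the submitters' processing notes the build was mm10, and Trimmomatic, BWA, MACS2, DiffBind and edgeR were used; their versions, order and settings, the removal of duplicates and any shift of read ends are not given in the sources used here. The lowest deposited count was 1, held by 985 values and by 0 values of the 46 peaks.

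Groups, mouse numbers and runs came from the labels. Nothing in the labels ties a mouse to more than 1 library, and p-values rest on the spread between libraries of different mice. At 3 months, where each group came from several runs, this spread also holds any difference between runs. Between replicates, chi-square over its degrees of freedom was 2.17 to 6.08, and 0 pairs were identical. A level of 3 counts, taken as the smallest detectable, was 0.235 to 0.391 CPM. No molecular identifiers are mentioned, so such floors cover counting error only.

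Peaks with over 1 CPM in at least 2 libraries were tested (75164) in edgeR 4.0.16 with trimmed mean of M-values (TMM) factors, glmQLFit and glmQLFTest, in R 4.3.3; age with sex as covariate was the main design, and a model of 4 group means gave the effects within each sex and the interaction. Gene sums were fitted likewise for 15312 genes; all peaks outside the 10 genes went to the nearest protein-coding gene within 10 kb, and gene CPM is relative to counts in peaks that have a gene; as an alternative added later, the sums were fitted with the library sizes and factors of the peak test. Adjusted p-values are Benjamini-Hochberg over all tested features, with a threshold of 0.05. The ratio of peaks away from gene ends to peaks at them was tested in limma 3.58.1 and was added after the peak values were seen. Alternatives included DESeq2 1.42.0, other scalings, filters, windows and leaving out each library. On simulated counts with known changes, 100 features at each fold, the peak test found 47% of 1.5-fold and 86% of 2-fold changes among 75164 peaks, and the gene test 88% and 99% among 15312 genes. Far fewer features changed there than were called in these data, and no difference between runs was simulated. These shares therefore do not measure how often real changes were found here.

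Named in full were all 10 genes, the most accessible peak of each and every called peak (the 4 with the smallest p where more were called, others briefly), and up to 3 genes per pathway list and direction. Genes, lists and markers were chosen with earlier results of these data known.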

Additional observations from a re-analysis of the deposited data

Results flagged for a closer look

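In each of 20 groups (10 genes, each age, 6 libraries) the highest and lowest gene sums were compared with the rest of the group; 4 stood apart by Dixon's criterion, where chance gives about 1 in 20. Tlr1 was low in the 18-month male 38, with 15.4 CPM against 17.9 to 18.8 CPM in the other 5. Tlr5 was high in the 18-month male 39, with 101 CPM against 72.5 to 82.2 CPM, and without that library the Tlr5 call was lost (log2 fold change 0.15, adjusted p = 0.0904). Nod1 was high in the 3-month female of run 29, with 82.2 CPM against 72.9 to 76.1 CPM, which was still below every 18-month value. Nod2 was high in the 3-month male of run 30, with 264 CPM against 172 to 195 CPM; that library also had the highest 3-month sum of neutrophil markers (1563 CPM), and the part of those markers in this value was not tested.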

How the results depend on the processing

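Under the scalings (DESeq2 size factors, total counts, offsets fitted on abundance or peak width), no filter, DESeq2, age alone and female libraries only, between 17 and 24 of the 46 peaks were higher, beside 19 as reported; with male libraries only 5 were higher and 1 lower, from 6 libraries. The number of genes was 7 to 9 of 10 under the alternatives of scaling, filter, tool, window and assignment, beside 8, except that it was 5 on the library sizes and factors of the peak test, added after seeing the data; that scale moved the median log2 fold change of all genes from 0.01 to -0.06, and 13 pathway genes were higher and 11 lower there, beside 24 and 9. Leaving out each library in turn gave 14 to 24 peaks and 6 to 9 genes, and the most came without the 3-month male of run 30. For most of these alternatives, including male libraries only and each library left out, the share of all peaks or genes called is not given here. These counts alone therefore do not show a change particular to the 46 peaks or 10 genes. Scaling by total counts moved the median log2 fold change of all peaks from 0.02 to 0.10, and the share of all peaks called higher from 9.43% to 14.9% and lower from 11.6% to 8.82%. The 2 genes with a higher ratio of peaks away from gene ends became 0 or 1 when 1 library was left out. Of the 19 called peaks 0 turned sign in any alternative, and of the 27 others 15 did in at least 1, 6 of them only with libraries of 1 sex; the Myd88 and Nod2 sums and 3 ratios, none of them called, also turned. Signs turned in a called or newly passing value for the Myd88 start peak with offsets fitted on abundance (0.19, adjusted p = 0.0257), for the Cd14 sum reduced to its most accessible peak (-0.016) and for the Cd14 ratio with peaks given to the nearest gene of any kind (0.30); the cause was not tested, except that the last leaves out the peak nearer to Tmco6. The Nod2 sum, not called as reported, passed with offsets fitted on abundance (0.23), inside the gene only (0.34), within 5 kb (0.33) and by nearest gene (0.33), and was -0.11 (adjusted p = 0.376) for its most accessible peak. For age no paired analysis was possible because no mouse number is shared between groups and no run held both ages; for sex at 3 months, run as a replicate block gave 0 peaks and 0 genes, as without it. The least accessible of the 46 peaks, upstream of Nod2, had the largest SE (0.26), and the part of depth in it was not tested.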
